A study of Mus musculus with 6 samples.

Results

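The unfolded protein response and the amino acid stress response were followed through 37 genes chosen by name as textbook members of these programmes. The choice was made with earlier results of these data known. All 37 had a row among the 34745 genes measured. They comprised 14 chaperones and folding enzymes of the endoplasmic reticulum (ER), 5 genes of ER-associated degradation, 5 sensors and transcription factors, 5 stress regulators that the transcription factor ATF4 activates, and 8 ATF4 targets that make or transport amino acids. Levels were read in FPKM, a fragment count divided by the length of the gene and the size of the library, in 6 tumours of Hep1-6, a mouse hepatoma cell line that had been grown in culture and placed under the skin of C57BL/6J mice. The mice were fed a normal diet (ND, 3 tumours) or a high cholesterol diet (HCD, 3 tumours), and no other treatment or allele is named in the labels. Age, sex and time on diet are not given in the sources used here, and nothing states that each tumour came from its own animal, so the tests weigh diet against a spread between samples that may be technical. Values of the 3 tumours of a diet are given in the order of their replicate numbers, 1 to 3. The comparison of HCD with ND asks whether dietary cholesterol goes with a change in either stress programme.

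When unfolded protein builds up in the ER, the sensors IRE1, ATF6 and PERK (encoded by Ern1, Atf6 and Eif2ak3) are activated. IRE1 splices the Xbp1 transcript and ATF6 is cut into a transcription factor, and together they drive genes of folding and degradation. PERK phosphorylates eIF2alpha, which lowers general translation and favours translation of ATF4. Other kinases, among them GCN2, which senses amino acid shortage, phosphorylate the same protein, so ATF4 targets can respond without the ER sensors. Much of this signalling lies in translation, splicing and protein cleavage, which gene-level FPKM does not measure.

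The value steps implied library sizes of 20351637 to 26228073 fragments, and ND 1 (22864685) was the second largest. The hepatoma label was checked on liver genes: albumin (Alb) was at 1176 to 1672 FPKM and alpha-fetoprotein (Afp) at 109 to 197 FPKM in the 6 tumours, while Ahsg, Apoa2, Serpina1a and Trf stayed under 1 FPKM in each. The tumours differed in the levels of genes that mark other cells. The summed level of 14 macrophage genes was 282.8 to 644 FPKM in ND and 448 to 1053 in HCD, and that of 15 T and NK cell genes 15.3 to 65.8 in ND and 47.5 to 115 in HCD. Both sums were lowest in ND 1 and highest in HCD 2. Summed skeletal muscle genes reached 824 FPKM in ND 2, 956 in HCD 1 and 99.1 in HCD 2, against at most 14.4 in the other 3 tumours. Neutrophil genes summed to 98.5 and 105.6 FPKM in ND 1 and ND 3 and to 40.1 to 42.9 in the other 4. Most of this split came from S100a9 and S100a8. S100a9 was at 61.2 and 60.2 FPKM in ND 1 and ND 3, against at most 20.4 in the other 4. S100a8 was at 16.7 and 17.7 FPKM there, against at most 7.39. The remaining neutrophil genes did not all share the split. Fibroblast genes summed to 858.7 to 1155 FPKM, most of it from Dcn (682.5 to 914 FPKM), while 8 of the 10 were highest in HCD 2 and 7 lowest in HCD 3. The sums ran from 58.6 to 128 FPKM for endothelial genes and from 5.99 to 65.7 for adipocyte genes. The highest adipocyte sum, in HCD 1, came mostly from Car3 (47.6 FPKM there). Fabp4 was at 4.55 to 11.1 FPKM, while Adipoq, Cidec, Lep, Plin1 and Retn stayed under 1 FPKM in every tumour. In bulk tissue, fewer cells of a type and less RNA per cell cannot be told apart.

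No member passed the test between diets. Limma on log2(FPKM + 1) called 0 of 37 members higher and 0 lower in HCD at an adjusted p of 0.05, beside 0.0% in each direction of the 13417 genes tested. At an unadjusted p under 0.05 there was 1 member, Ppp1r15a, against 5.88% of all tested genes, and the lowest adjusted p of a member was 0.794. The means of 14 members were higher and those of 23 lower in HCD, where 7475 of the 13417 tested genes were higher and 5942 lower. The groups did not overlap for 4 members, each lower in HCD, and for 0 members higher in HCD. Over all tested genes those shares were 6.13% lower and 5.98% higher. For 33 of the 37 members the 95% interval of the log2 difference stayed between -1 and 1, and for 27 between -0.5 and 0.5. The 4 with wider intervals were Derl3, Chac1, Asns and Cth.

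**Figure D1:**
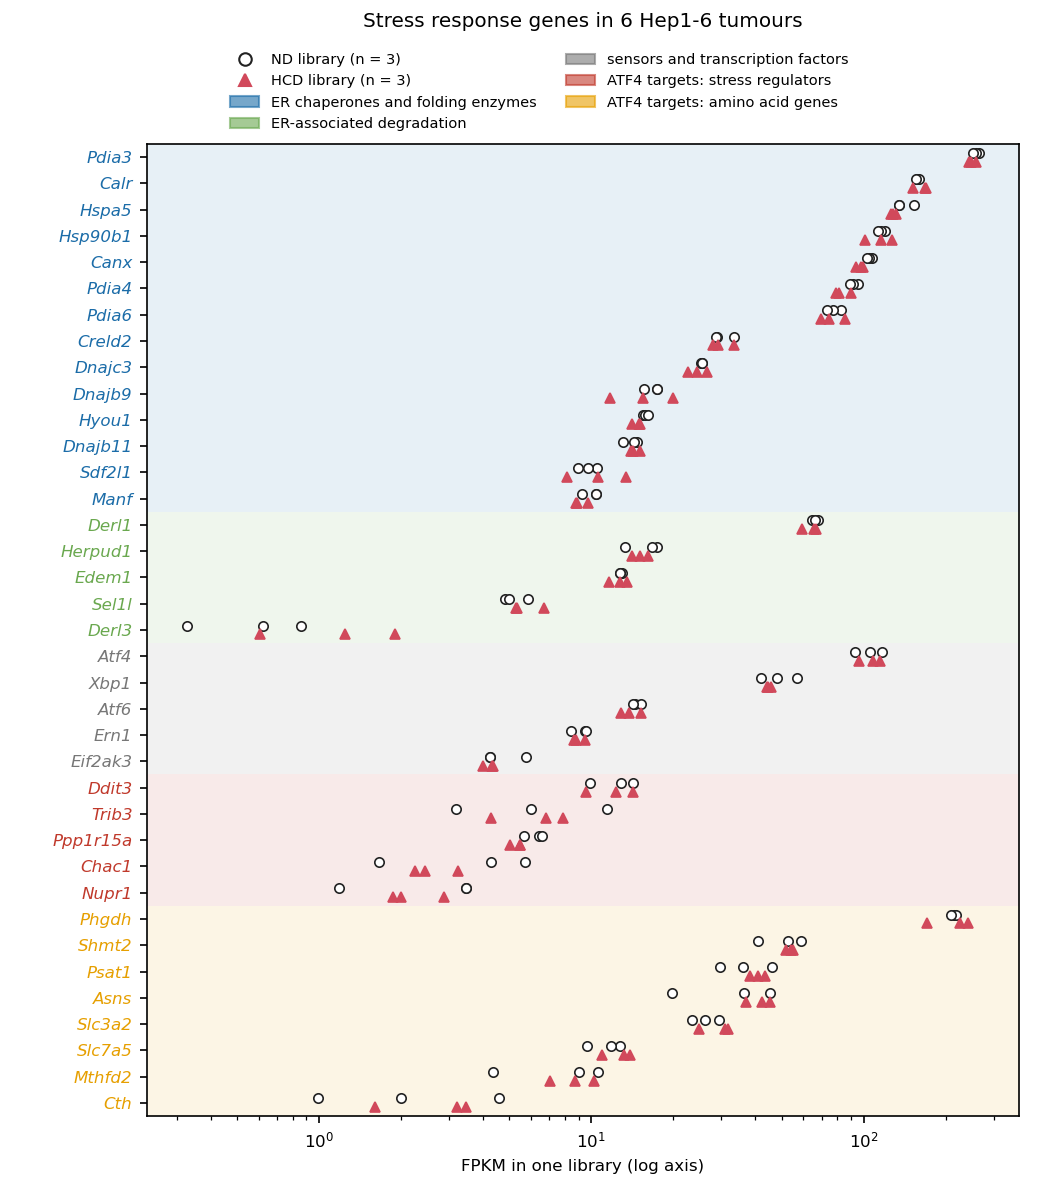
FPKM of each of the 37 genes (rows, log axis) in the 3 ND libraries (open circles) and the 3 HCD libraries (triangles), with the functional groups shaded. ER chaperones lie between 8 and 265 FPKM with points close together, while Chac1, Trib3, Nupr1, Asns, Mthfd2 and Cth spread over more than 2-fold, with ND 1 as the lowest point.

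ER chaperones were abundant and varied little between tumours. Hspa5, which encodes BiP, the main Hsp70 chaperone of the ER (chromosome 2, 34771970 to 34777547), read 153, 135 and 134 FPKM under ND and 126, 132 and 128 under HCD. Each ND value lay above each HCD value, by a narrow gap. Its log2 difference was -0.13 (SE 0.068, limma adjusted p = 0.794).

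The BiP gene carries an ER stress response element (ERSE), the sequence bound by ATF6 with the factor NF-Y: CCAAT, 9 free bases, then CCACG. The 250 bases before its RefSeq start are shown because this gene is the standard reporter of the unfolded protein response. They lie at chr2:34771840-34772089 of GRCm38.p6, plus strand, 5′ to 3′, and the capitals mark the element.
Hspa5: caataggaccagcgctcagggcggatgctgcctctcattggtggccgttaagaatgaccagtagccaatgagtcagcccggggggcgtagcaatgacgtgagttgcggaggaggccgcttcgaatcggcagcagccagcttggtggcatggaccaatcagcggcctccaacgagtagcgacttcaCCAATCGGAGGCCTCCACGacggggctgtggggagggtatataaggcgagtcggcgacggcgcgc

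Promoter windows from RefSeq, from 250 bases before to 50 after a gene's start, were found for 31 of the 37 members. A gene was counted if any of its windows matched, while shares over all windows count single windows. Searched on both strands, ERSE was found for 7 of the 12 chaperones with a window (Hspa5, Hsp90b1, Calr, Canx, Pdia6, Dnajc3 and Creld2). It was also found for Derl3, and in 0.119% of all 32851 windows. It was found for none of the 11 ATF4 targets with a window. The shorter ERSE-II (ATTGG, 1 free base, then CCACG, which shares its second part with ERSE) was in the windows of Dnajb11 and Herpud1, against 0.0365% of all windows. A match is a description of the letters and not evidence of binding. The elements are shown with up to 15 flanking bases, in the direction of each gene and 5′ to 3′ on GRCm38.p6. The Dnajb11 match lies after the RefSeq start site and is not printed. Positions are those of the capitals, which mark ERSE, or ERSE-II in the line of Herpud1, and Hsp90b1 has 2 of them. In Calr, Creld2, Derl3 and the second line of Hsp90b1 the element reads as its reverse complement.
Calr, chr8:84847075-84847093: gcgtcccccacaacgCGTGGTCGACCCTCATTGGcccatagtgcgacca
Canx, chr11:50325800-50325818: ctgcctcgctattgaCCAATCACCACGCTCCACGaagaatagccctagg
Creld2, chr15:88819520-88819538: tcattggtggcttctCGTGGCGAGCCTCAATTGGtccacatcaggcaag
Dnajc3, chr14:118937827-118937845: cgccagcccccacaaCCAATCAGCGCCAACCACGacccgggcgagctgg
Pdia6, chr12:17266491-17266509: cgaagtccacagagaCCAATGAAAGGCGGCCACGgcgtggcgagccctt
Derl3, chr10:75893242-75893260: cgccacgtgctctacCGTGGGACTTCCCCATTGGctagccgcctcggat
Hsp90b1, chr10:86705638-86705656: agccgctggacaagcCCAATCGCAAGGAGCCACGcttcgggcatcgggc
Hsp90b1, chr10:86705533-86705551: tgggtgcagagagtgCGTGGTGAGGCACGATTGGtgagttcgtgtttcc
Herpud1, chr8:94386377-94386387: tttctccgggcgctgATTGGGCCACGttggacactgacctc

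Most other chaperones varied as little as Hspa5. The ratio of the highest to the lowest library had a median of 1.19 over the 14 chaperones and of 1.33 over all tested genes. That background holds many low genes, and over the 6968 tested genes averaging 5 FPKM or more the median was 1.24. The chaperone ratio thus lay only slightly below that of genes at such levels. The lectin chaperones Calr and Canx fold glycoproteins. Calr averaged 157.7 ± 2.20 FPKM (SD, n = 3) under ND and 162.8 ± 9.44 under HCD. Its log2 difference was 0.04. Canx read 107.7, 104.4 and 103.0 FPKM under ND and 98.01, 93.7 and 99.6 under HCD. The groups did not overlap for Canx, and its difference was -0.11 (SE 0.050, limma adjusted p = 0.794). Pdia3, the disulphide isomerase that works with both lectins, had the highest FPKM of the 37 genes, with means of 258.7 ± 6.43 (SD, n = 3) under ND and 249.5 ± 7.84 under HCD. Its highest library exceeded its lowest by 1.09 times. Hyou1, an Hsp110-type nucleotide exchange factor for BiP, was at 15.8 ± 0.311 and 14.7 ± 0.557 FPKM (SD, n = 3), again without overlap (the log2 difference was -0.10, limma adjusted p = 0.794).

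Hsp90b1, the ER member of the Hsp90 family, averaged 115.9 ± 3.44 FPKM (SD, n = 3) under ND and 114.5 ± 12.6 under HCD. Exons of Hsp90b1 overlap those of Gm15344 (mean 7.33 FPKM) and exons of Manf those of Rbm15b (mean 7.49 FPKM), both on the same strand, so reads there could be assigned to either gene. The isomerases Pdia4 and Pdia6 had differences of -0.14 and -0.03. Dnajb11 and Dnajc3, which are BiP co-chaperones, differed by 0.04 and -0.05, and the secreted ER stress proteins Manf and Creld2 by -0.12 and -0.01. The widest chaperones were Dnajb9, a co-chaperone that restrains IRE1, and Sdf2l1, a partner of Dnajb11. Dnajb9 read 17.5, 15.6 and 17.4 FPKM under ND and 15.4, 19.9 and 11.7 under HCD. Sdf2l1 read 8.92, 10.5 and 9.72 FPKM under ND and 10.6, 13.4 and 8.11 under HCD, in the same order of libraries. Both were highest in HCD 2 and lowest in HCD 3, so the HCD values enclosed those of ND. In all, 3 of 14 chaperones were on average higher and 11 lower under HCD, with a median log2 difference of -0.05, where the median of all tested genes was 0.02. Without HCD 3, which was the lowest library for 7 of the 14, the counts were 7 higher and 7 lower and the mean difference was -0.01 in place of -0.05.

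Genes of ER-associated degradation, which sends misfolded proteins back to the cytosol for destruction, had 2 higher and 3 lower means. Herpud1, a scaffold of the retrotranslocation complex, and Edem1, a lectin that marks glycoproteins for disposal, differed by -0.06 and -0.02. Sel1l, the adaptor of the HRD1 ubiquitin ligase, differed by 0.12, and Derl1, a channel component, by -0.05. Derl3, a related component abundant in secretory cells such as plasma cells, read 0.622, 0.856 and 0.327 FPKM under ND and 1.25, 1.91 and 0.608 under HCD. HCD 3 lay inside the ND range, so the groups overlapped. These values rest on 9 to 52 fragments a library, and the difference of 0.47 had a 95% interval of -0.12 to 1.05 (limma adjusted p = 0.794). Of the plasma cell markers, Mzb1, which was chosen after its values were seen, read 0.290, 1.98 and 1.55 FPKM under ND and 3.26, 3.03 and 0.317 under HCD. Cd79a, of the B cell lineage and chosen in the same way, read 0.420, 0.654 and 0.366 FPKM under ND and 2.53, 1.51 and 0.394 under HCD. Derl3, Mzb1 and Cd79a thus each had their 2 highest values in HCD 1 and HCD 2. The same held for Irf4 and Pou2af1, but not for the markers Jchain, Sdc1, Prdm1, Fcrl5 and Tnfrsf17. Derl3 was highest in HCD 2, whereas Mzb1, Cd79a, Irf4 and Pou2af1 were highest in HCD 1. Jchain and Tnfrsf17 were highest in ND 2 and Sdc1 in ND 1. Sdc1 and Prdm1 had the highest means of these markers and read 13.3 to 19.4 and 7.69 to 10.97 FPKM over the 6 tumours. Jchain, the joining chain of secreted antibodies and likewise chosen afterwards, was at 3.62 to 13.5 FPKM in ND and 1.30 to 10.6 in HCD, and Tnfrsf17 stayed under 1 FPKM in all tumours. The summed level of the 9 markers was 35.0 to 42.2 FPKM in ND and 26.2 to 43.2 in HCD, most of it from Sdc1 and Prdm1. Their part in the Derl3 values was not tested.

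Of the 5 sensors and transcription factors, 0 were called, and the smallest adjusted p by limma was 0.824. Xbp1 read 56.9, 41.8 and 48.1 FPKM under ND and 45.65, 44.6 and 44.1 under HCD. ND 1 was the highest library and the HCD values lay inside the ND range. Eif2ak3 was also highest in ND 1, at 5.77 FPKM against 4.01 to 4.36 in the other 5. Ern1 and Atf6 differed by -0.03 and -0.07. Atf4 itself read 93.1, 117.0 and 105.6 FPKM under ND and 95.8, 114.8 and 107.8 under HCD. ND 1 was its lowest library, though it lay only 1.26 times below the highest. The log2 difference of Atf4 was 0.01 (95% interval -0.24 to 0.27, limma adjusted p = 0.977).

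ATF4 targets varied more between tumours than the chaperones, also between tumours of the same diet. Asns, which encodes asparagine synthetase (chromosome 6, 7675169 to 7693254), read 19.9, 45.1 and 36.5 FPKM under ND and 36.9, 42.2 and 45.45 under HCD. ND 1 stood alone, and the other 5 values overlapped between diets. Its log2 difference of 0.36 (SE 0.286, limma adjusted p = 0.805) was 0.03 without ND 1.

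Many ATF4 targets carry a C/EBP-ATF response element (CARE), searched here as TGATGNAA on both strands. The promoter of Asns is shown because this gene is a standard reporter of amino acid shortage. The 250 bases before its RefSeq start lie at chr6:7693210-7693459 of GRCm38.p6, minus strand, and are printed 5′ to 3′ with the element in capitals.
Asns: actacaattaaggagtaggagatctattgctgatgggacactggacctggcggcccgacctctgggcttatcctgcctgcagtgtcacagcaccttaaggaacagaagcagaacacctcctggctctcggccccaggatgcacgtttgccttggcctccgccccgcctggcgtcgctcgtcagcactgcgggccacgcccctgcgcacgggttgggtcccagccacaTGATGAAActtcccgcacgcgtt

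CARE was found for 4 of the 11 ATF4 targets with a window (Asns, Chac1, Nupr1 and Trib3) and in 3.97% of all windows. It was found for none of the 12 chaperones with a window. The Trib3 match lies after the RefSeq start site and is not printed. Herpud1, which had ERSE-II, also had CARE, with no overlap between them. The matches outside Asns are shown in the same form as above, with the element in capitals on the strand of the gene, where each reads as the reverse complement.
Chac1, chr2:119351049-119351056: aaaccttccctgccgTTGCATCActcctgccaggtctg
Nupr1, chr7:126625573-126625580: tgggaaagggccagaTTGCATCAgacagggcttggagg
Herpud1, chr8:94386317-94386324: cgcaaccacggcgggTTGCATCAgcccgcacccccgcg

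**Figure D2:**
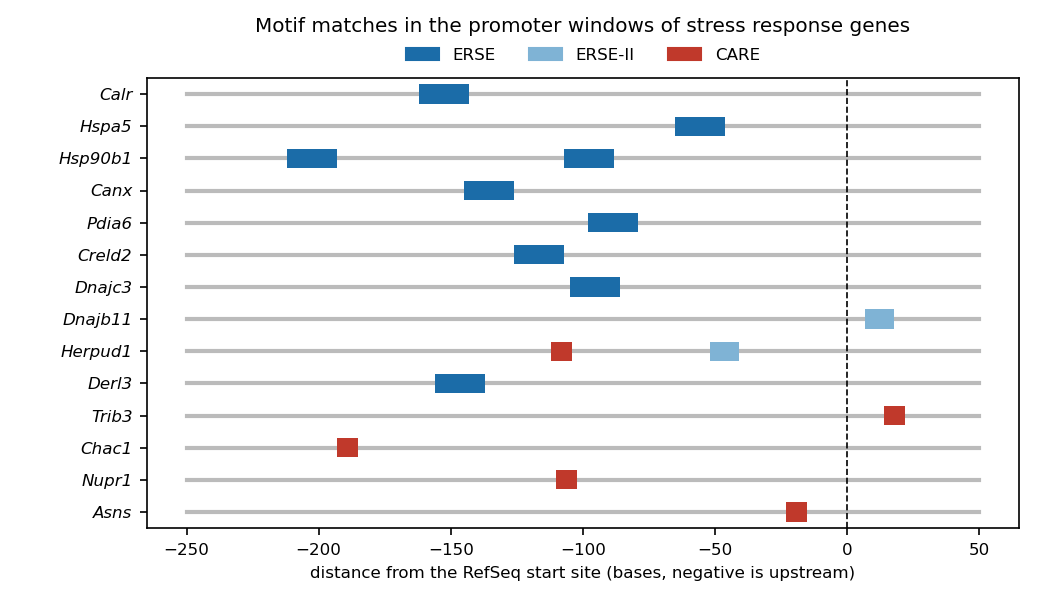
Position of each ERSE, ERSE-II and CARE match (coloured blocks) in the window from 250 bases before to 50 after the RefSeq start site, with 1 row per gene and the distance from the start in bases. ERSE matches of 7 chaperones and Derl3 lie upstream of the start, and CARE matches are in Herpud1 and 4 ATF4 targets.

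Of the 5 stress regulators, 1 was on average higher and 4 lower under HCD, with a median log2 difference of -0.13. Trib3, a pseudokinase that dampens ATF4 signalling, read 3.17, 11.45 and 6.03 FPKM under ND and 4.29, 7.86 and 6.82 under HCD. The extremes were both ND tumours and enclosed all HCD values. Its log2 difference was 0.00, with a 95% interval of -0.99 to 0.995 (limma adjusted p = 0.999). Chac1, which degrades glutathione, read 1.66, 5.73 and 4.30 FPKM under ND and 2.25, 3.23 and 2.45 under HCD, from 62 to 246 fragments a library. Again ND 1 was lowest and ND 2 highest. Its difference of -0.33 had a 95% interval of -1.16 to 0.49 (limma adjusted p = 0.837), and without ND 1 it was -0.72. Nupr1, a small chromatin-associated stress protein, read 1.18, 3.47 and 3.46 FPKM under ND and 2.00, 2.87 and 1.88 under HCD, with a difference of -0.13.

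The last 2 stress regulators did not follow ND 1. Ddit3, the transcription factor CHOP, read 14.2, 9.93 and 12.9 FPKM under ND and 9.55, 14.3 and 12.3 under HCD. ND 1 was here among the high libraries and ND 2 among the low ones. Exons of Ddit3 overlap those of Mars (mean 16.9 FPKM) on the opposite strand, and as the strand setting was not given in any source used here, the Ddit3 values are uncertain. Ppp1r15a, the GADD34 subunit that brings a phosphatase to eIF2alpha, read 5.66, 6.45 and 6.61 FPKM under ND and 5.04, 5.47 and 5.45 under HCD. The groups did not overlap. Its difference of -0.19 (SE 0.075, 95% interval -0.38 to -0.01) had an unadjusted p of 0.0397 and a limma adjusted p of 0.794, and it ranged from -0.25 to -0.16 when each library was left out in turn.

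Of the 8 amino acid genes, 7 had their higher mean under HCD and 0 were called. The median log2 difference was 0.15. Mthfd2, a mitochondrial enzyme of folate metabolism, read 4.35, 10.55 and 9.03 FPKM under ND and 7.02, 10.3 and 8.69 under HCD. Cth, which makes cysteine from cystathionine, read 1.00, 4.57 and 2.00 FPKM under ND and 1.60, 3.47 and 3.22 under HCD, from 81 to 427 fragments a library. For both genes the ND tumours held the lowest and the highest value. Cth had the widest ratio of highest to lowest library among the ATF4 targets, 4.60.

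Of the serine synthesis enzymes, Psat1 read 29.6, 46.2 and 36.2 FPKM under ND and 40.8, 38.4 and 43.4 under HCD. Shmt2, which passes a serine carbon to folate in mitochondria, was at 50.8 ± 9.10 and 53.7 ± 1.76 FPKM (SD, n = 3). Exons of Shmt2 overlap Ndufa4l2 (mean 6.39 FPKM) on the opposite strand. Slc3a2 and Slc7a5, the 2 chains of the LAT1 amino acid transporter, differed by 0.14 and 0.15. These 4 genes were also lowest in ND 1. Phgdh, the first enzyme of serine synthesis, was the exception: it read 214, 218 and 209 FPKM under ND and 241, 171 and 226 under HCD, with its lowest value in HCD 2. A pseudogene copy, Phgdh-ps1, lies elsewhere in the genome, and reads shared with it could be assigned to either. Without ND 1 the count of amino acid genes with a higher mean in HCD was 3 of 8, and the mean difference was -0.03 in place of 0.15.

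**Figure D3:**
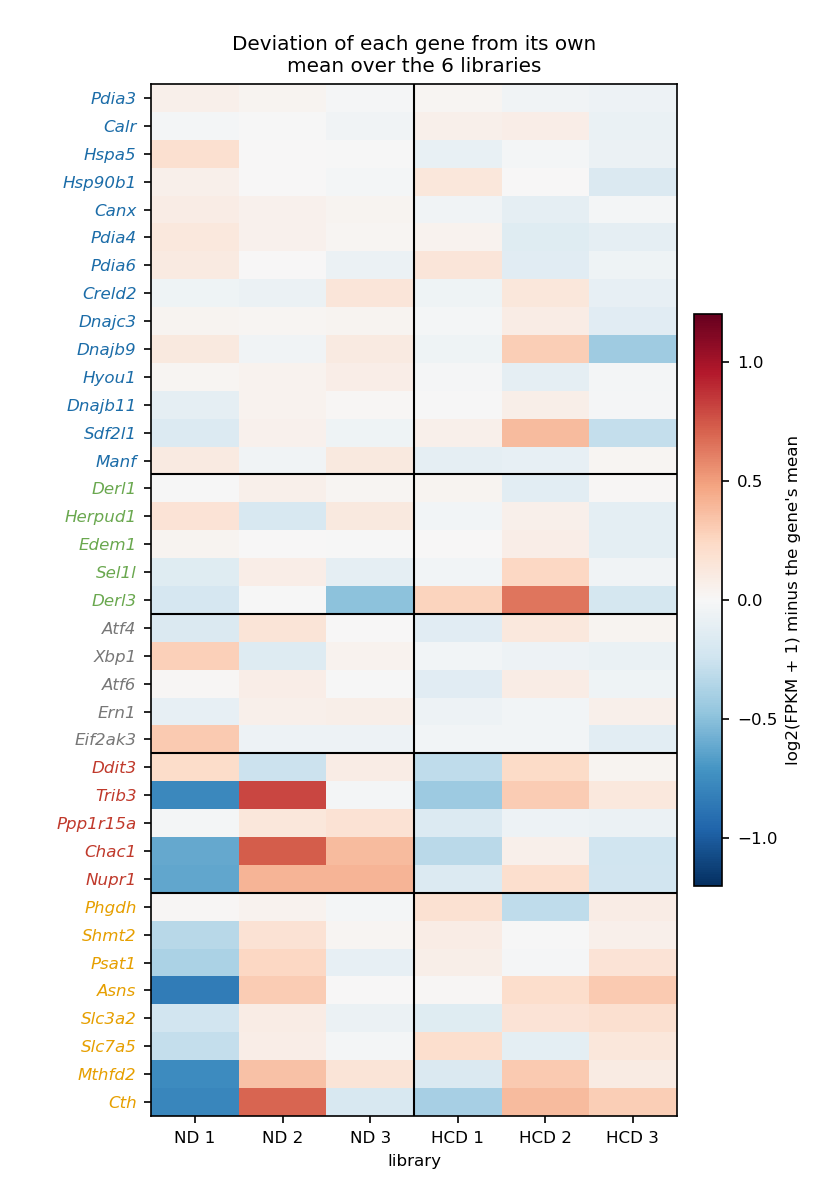
Deviation of each gene from its own mean over the 6 libraries, in log2(FPKM + 1), with genes in rows by functional group and libraries in columns (red above, blue below the mean). The column of ND 1 is blue for 10 of the 13 ATF4 targets as their lowest library, while the chaperone rows stay pale, except for Dnajb9 and Sdf2l1 in HCD 2 and HCD 3.

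Set side by side, the 2 programmes differed in how much they varied. The SD of log2(FPKM + 1) over the 6 tumours had a median of 0.10 for the 14 chaperones (0.05 to 0.24) and of 0.23 for the 13 ATF4 targets (0.13 to 0.56). It was 0.12 over all tested genes and 0.11 over the 6968 with a mean of at least 5 FPKM. On the log2 scale, the chaperones averaged 5.56, 5.53 and 5.54 under ND and 5.53, 5.55 and 5.41 under HCD. The mean over the ATF4 targets was 3.47, 4.18 and 3.95 in ND and 3.77, 3.99 and 3.96 in HCD. The chaperone means thus stayed level in all libraries but HCD 3, while ATF4 target means ran from ND 1 to ND 2 across a span that held all 3 HCD tumours.

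The difference of ATF4 targets minus chaperones was -2.09, -1.35 and -1.59 in ND and -1.76, -1.55 and -1.45 in HCD. Its HCD minus ND difference was 0.09, where the SD between tumours of a group was 0.29. The mean HCD minus ND difference was -0.05 for chaperones and 0.04 for ATF4 targets. The value for ATF4 targets joined opposite signs, -0.14 for the stress regulators and 0.15 for the amino acid genes. For all ATF4 targets together the mean difference was -0.16 without ND 1 and 0.20 without ND 2. It was 0.27 without ND 2 and HCD 1, the 2 tumours with the most muscle RNA. No test was applied to these scores, because the genes were chosen with results known.

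**Figure D4:**
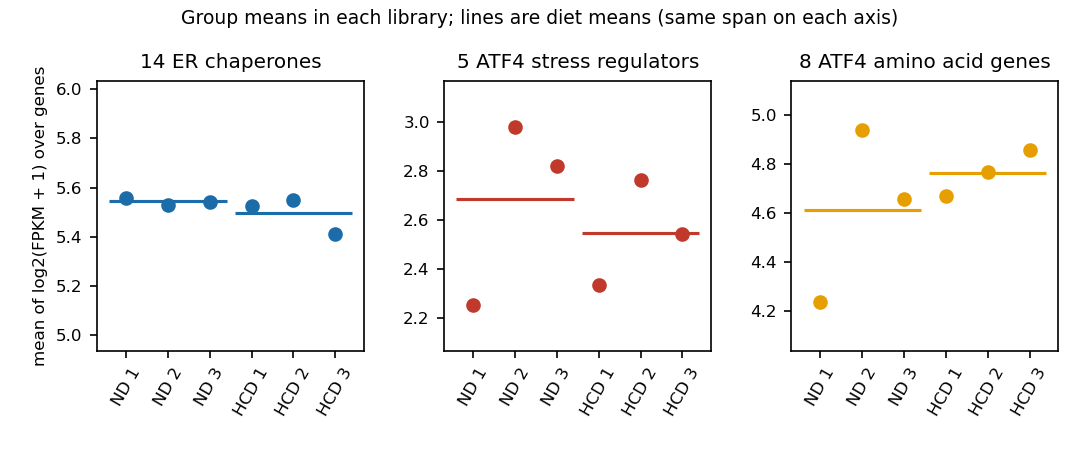
Mean of log2(FPKM + 1) over 14 ER chaperones, 5 ATF4 stress regulators and 8 ATF4 amino acid genes in each library (points), with the mean of each diet (lines) and the same vertical span in each panel. Chaperone means lie between 5.41 and 5.56, while amino acid genes run from 4.24 in ND 1 to 4.94 in ND 2. Stress regulators run from 2.25 in ND 1 to 2.98 in ND 2, with HCD 1 at 2.34.

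ND 1 was the lowest library for 10 of 13 ATF4 targets and for 1 of 14 chaperones, where it was the lowest for 27.3% of all tested genes. ND 2 was the highest library for 7 of 13 ATF4 targets and for 0 chaperones, against 12.1% of all tested genes. In ND 1 the macrophage genes were lowest for 11 of 14 and the T and NK cell genes for 14 of 14 tested. The summed muscle genes were high in ND 2 and in HCD 1. HCD 1 was the lowest library for 2 of the 13 ATF4 targets (Ddit3 and Ppp1r15a) and the highest for 2 (Phgdh and Slc7a5). The log2 mean over the stress regulators was nearly as low in HCD 1 (2.34) as in ND 1 (2.25), against 2.54 to 2.98 in the other libraries. Over the amino acid genes it was 4.67 in HCD 1 and 4.24 in ND 1. Of the 17 hypoxia and glycolysis genes, 15 were lowest in HCD 1 and 0 in ND 1, and 9 were highest in ND 1. The part of these cell types and of hypoxia in the ATF4 target levels was not tested.

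**Figure D5:**
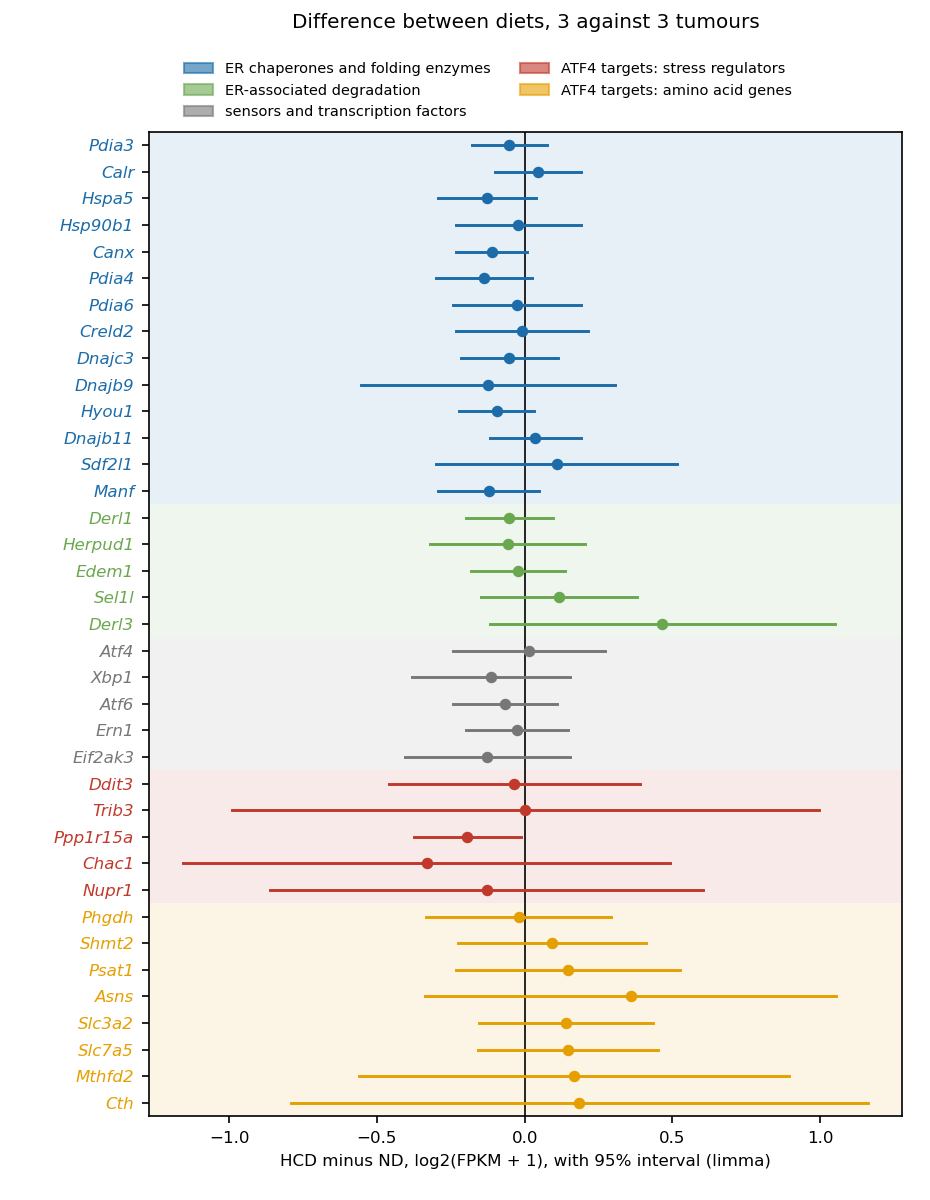
HCD minus ND difference of each gene on the log2(FPKM + 1) scale (points) with its 95% interval from limma (lines), 3 against 3 tumours. The intervals of 36 of the 37 genes cross 0, those of chaperones are mostly narrow, and those of Derl3, Trib3, Chac1, Asns and Cth reach about 1 on one or both sides.

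Other genes of the same pathways were taken as whole lists by function. Among 47 tested ER folding, translocation and degradation genes outside the 37, 0 were called, 13 were on average higher and 34 lower under HCD, and the median difference was -0.06. P4hb, a disulphide isomerase, read 364, 301.5 and 309 FPKM under ND and 293, 275 and 332 under HCD. Ganab, a glucosidase that trims new glycoproteins, differed by -0.11. Creb3l2, an ER-bound transcription factor of secretory cells, had the largest absolute difference of that list, -0.44 (SE 0.134, limma adjusted p = 0.794). It read 25.6, 17.5 and 22.3 FPKM under ND and 16.3, 14.9 and 15.8 under HCD, without overlap. ND 1 was the lowest library for 3 of these 47 genes and the highest for 21, beside 27.3% and 17.4% of all tested genes. The groups did not overlap for 9 of the 47 lower in HCD and for 1 higher, beside 6.13% and 5.98% of all tested genes. Of the 48 genes on the full list, 40 had a promoter window, and ERSE was found for 2.

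Of 32 other amino acid response genes, 27 were tested, 0 were called, and 18 were on average higher and 9 lower under HCD. Slc38a2, an amino acid transporter, read 155, 155 and 160 FPKM under ND and 126, 135 and 126 under HCD, so the groups did not overlap. Its difference was -0.29 (SE 0.053, limma adjusted p = 0.794). Eif4ebp1, a translation repressor, and Vldlr, a lipoprotein receptor, differed by -0.12 and -0.33. ND 1 was the lowest library for 14 of the 27 and the highest for 2, and HCD 1 was the lowest for 7. A promoter window was found for 27 of the 32 genes, and CARE for 8. Atf5, Psph and Aldh1l2, chosen after their values were seen, were at 11.1, 1.845 and 1.095 FPKM in ND 1 and at no less than 17.7, 3.37 and 2.23 FPKM in any other library.

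The 20 cytosolic tRNA synthetases, several of them ATF4 targets, had 13 higher and 7 lower means, 0 called, and a median difference of 0.02. Nars read 105, 151 and 136 FPKM under ND and 116.5, 132 and 134 under HCD, and Gars differed by 0.07. Cars had the largest absolute difference, -0.20 (SE 0.092, limma adjusted p = 0.794). ND 1 was the lowest library for 13 of the 20 and ND 2 the highest for 12, the same libraries that were lowest and highest for most ATF4 targets. CARE was found for 5 of the 13 synthetases with a promoter window. A list of 15 genes held subunits of eIF2, its kinases, its exchange factor and a phosphatase subunit, and beside these Nck1, Eif2a and Dnajb1. Of the 15, 0 were called and 13 had a higher mean in HCD, with a median difference of 0.07. The groups did not overlap for 3 of the 15, each higher in HCD (Eif2b2, Eif2b4 and Eif2b5, named after their values were seen), beside 5.98% of all tested genes. Eif2s3x and Eif2s1 differed by 0.02 and -0.03, and Dnajb1, a heat shock co-chaperone, by 0.19. ND 1 was the lowest library for 6 of these 15.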

How the data were processed

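RNA from 3 ND and 3 HCD tumours was sequenced. The authors deposited one table of FPKM for 34745 Ensembl gene IDs in which, per the file headers, each sample has a column. CASAVA 1.8, TopHat2 2.0.9, HTSeq, edgeR and mm10 are named, with no role for each, per the submitters' processing notes. The annotation release and strand setting were not given in the sources used here.

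FPKM are not counts, so no count test was used. Genes whose mean reached 0.5 FPKM were tested on log2(FPKM + 1) with limma 3.58.1 in R 4.3.3, with diet as the only term, a variance trend, two-sided p-values and a threshold of 0.05 after Benjamini-Hochberg adjustment over all 13417 tested genes. All 37 members were tested. Differences are HCD minus ND on that scale, which understates changes of low genes. The fit was tested on simulated data. Group means and counts are descriptions.

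The 37 members, the groups and the other lists were chosen with earlier results of these data known. Every member was named. Of each other pathway list the 2 genes with the highest mean and the 1 with the largest difference were named, and of marker lists the genes with the highest mean or near 0, as far as a result touched them. Afp, Mzb1, Jchain, Cd79a, Irf4, Pou2af1, Fcrl5, Atf5, Psph, Aldh1l2, Eif2b2, Eif2b4 and Eif2b5 were named outside this rule. Where a symbol had 2 rows, the row with the higher mean was used.

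Library sizes and fragments per gene were read from the value steps, with values whole within 0.02 of a fragment for all 37 members. The lengths this required exceeded the exon length in GENCODE M21 by over 1.2 times for 23 members and reached 2.03 times, so FPKM of different genes compare only roughly. Fragments per member and library ran from 9 to 26856. Gene positions, counted from 1, come from GENCODE M21 (GRCm38, the same assembly as mm10). RefSeq starts can differ from these. For Hspa5 and Asns the bases printed before the RefSeq start lie partly inside the GENCODE span of the gene. The Trib3 match lies before its GENCODE start. Alternatives were a pseudocount of 0.1, no filter, median-ratio scaling, a replicate block and leaving out each library. Leaving out both muscle-rich libraries together was chosen after seeing the data.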

Additional observations from a re-analysis of the deposited data

How the results depend on the processing

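No member was called under any of the alternatives run, and the smallest adjusted p of a member by limma was 0.546, without ND 2. Over all genes, the number called lower in HCD ranged from 0 to 1 when each library was left out. That 1 gene, without ND 2, was S100a9, a neutrophil gene outside the 37 (-1.60 on the log2 scale, limma adjusted p = 0.0328). The mean difference ranged from -0.076 to -0.007 for chaperones and from -0.157 to 0.198 for ATF4 targets over these omissions, and ATF4 targets minus chaperones from -0.116 to 0.254. Same-numbered ND and HCD tumours did not deviate together (correlations over genes of -0.19, 0.142 and 0.059), so the numbers were not taken to pair them. With the replicate block, 0 members and 0 genes were called. The mean differences stayed at -0.049 and 0.040, which a block cannot change in this balanced design. Trib3 turned to -0.005 under median-ratio scaling. With both muscle-rich libraries left out, Ern1 turned to 0.024, Atf6 to 0.011, Chac1 to 0.027 and Nupr1 to 0.096. Leaving out 1 library turned the sign of 19 members, each with a main difference of at most 0.185 in size, and of the other 18 in no case. Among ER folding, degradation and sensor genes the ranges were Atf4 (-0.070 to 0.093), Creld2 (-0.082 to 0.060), Dnajb11 (-0.010 to 0.068), Dnajb9 (-0.301 to 0.058), Dnajc3 (-0.108 to 0.005), Edem1 (-0.068 to 0.030), Ern1 (-0.080 to 0.004), Herpud1 (-0.169 to 0.010), Hsp90b1 (-0.097 to 0.061), Pdia6 (-0.105 to 0.036) and Sdf2l1 (-0.055 to 0.277). Among ATF4 targets they were Cth (-0.160 to 0.581), Ddit3 (-0.172 to 0.110), Mthfd2 (-0.170 to 0.386), Nupr1 (-0.473 to 0.044), Phgdh (-0.118 to 0.126), Psat1 (-0.004 to 0.309), Shmt2 (-0.053 to 0.203) and Trib3 (-0.386 to 0.402). Beyond the construction of each alternative, the cause of these turns was not tested. Depth limits Derl3 most, with 9 to 52 fragments a library. With 3 tumours a diet, intervals were wider for ATF4 targets than for chaperones, with a median reach of 0.42 on either side against 0.17.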
